A study of Mus musculus with 8 samples.

Results

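Integrins are receptors for the matrix proteins called laminins, and for other ligands, and 32 integrin and laminin genes were measured among 12393 mouse genes on 8 Affymetrix arrays. The members are all genes whose symbol in the platform's probe annotation begins with Itga, Itgb, Lama, Lamb or Lamc. The binding partner genes Itgb1bp1, Itgb1bp2 and Itgb3bp, the gene Itgbl1 and the Lamtor genes were left out. They comprise 22 integrin subunits and 10 laminin chains, each read from the probe set with the highest mean over the 8 arrays. The rule itself uses only symbols and, for the probe set, the mean level over all arrays. Itga1, Itga10, Itga11, Itgad and Itgb8 were not analysed here.

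Total RNA was taken from 6 primary sarcomas of soft tissue, and from 2 hind limb muscles that held no tumour. All mice, those giving the muscles included, carried floxed p53 alleles on both chromosomes and the BrafCa allele, either on both (Ca/Ca) or on 1 (Ca/+). Tumours were started by an injected adenovirus carrying Cre recombinase, which recombines floxed alleles in whatever cells it infects. There were 4 Ca/Ca sarcomas (numbers 1, 2, 3 and 5), 2 Ca/+ sarcomas (numbers 1 and 2) and 1 muscle of each genotype. No source used here gives ages, and no label ties each array to its own animal. The p-values therefore reflect only how these samples spread, which could be technical.

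Laminins are cross-shaped trimers of an alpha, a beta and a gamma chain that form the sheet of every basement membrane. Integrins are pairs of an alpha and a beta subunit that span the cell membrane and tie laminin, collagen, fibronectin or other ligands to the actin cytoskeleton. Around adult muscle fibres the laminin alpha2 chain (Lama2) joins beta1 or beta2 and gamma1, and is held by the integrin alpha7 beta1 (Itga7 and Itgb1) and by dystroglycan. Loss of LAMA2 or ITGA7 function causes congenital muscle disease. The fibronectin receptor alpha5 beta1 and the alphav integrins, which read the RGD motif of fibronectin and vitronectin, are typical of spread fibroblasts and of wound and tumour stroma.

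Values are log2 levels made with RMA by the authors, so a difference of 1 is a 2-fold change on that scale. Muscle fibre markers checked the tissue labels, with list means of 12.91 and 12.76 in the muscles and of 6.84 to 9.10 in the sarcomas, and 16 of 16 markers lower in sarcoma. For the Ca/Ca and the Ca/+ muscle, macrophage markers had list means of 9.96 and 8.53, against 9.20 to 10.76 in sarcomas, and epithelial markers of 5.27 and 3.89. Braf, the targeted gene, had levels from 4.45 to 5.07 in sarcomas and of 4.50 and 4.62 in the muscles. No source used here says whether its probe set covers the altered stretch of the gene, so it checks no label. A set of 35 genes of unrelated organs, such as lens crystallins and protamines, had a median level of 3.34 and a 90th percentile of 5.06, and a level at or under 5.06 is called dim here.

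The sarcomas differed from muscle in 9 of the 32 genes. Itga7, Lama2, Lamb2 and Lamb3 were lower in sarcoma, and Itga5, Itgav, Itgb1, Itgb3 and Lamb1 were higher, at an adjusted p under 0.05 (limma, Benjamini-Hochberg over 12393 genes). By family, 4 of 22 integrin subunits rose and 1 fell, while 1 of 10 laminin chains rose and 3 fell. Over all genes 26.3% passed, 13.1% higher and 13.2% lower, against 28.1% of the members, so the share of changed members lay near the background. At an unadjusted p under 0.05 there were 11 members, against 37.9% of all genes. The 6 sarcomas lay above both muscles for 8 members, against 20% of all genes, and below both for 5, against 19%. The median difference was 0.14 over the members and 0.026 over all genes. Without the Ca/+ muscle 0 members were higher and 1 was lower, against 3% and 6.64% of all genes.

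**Figure D1:**
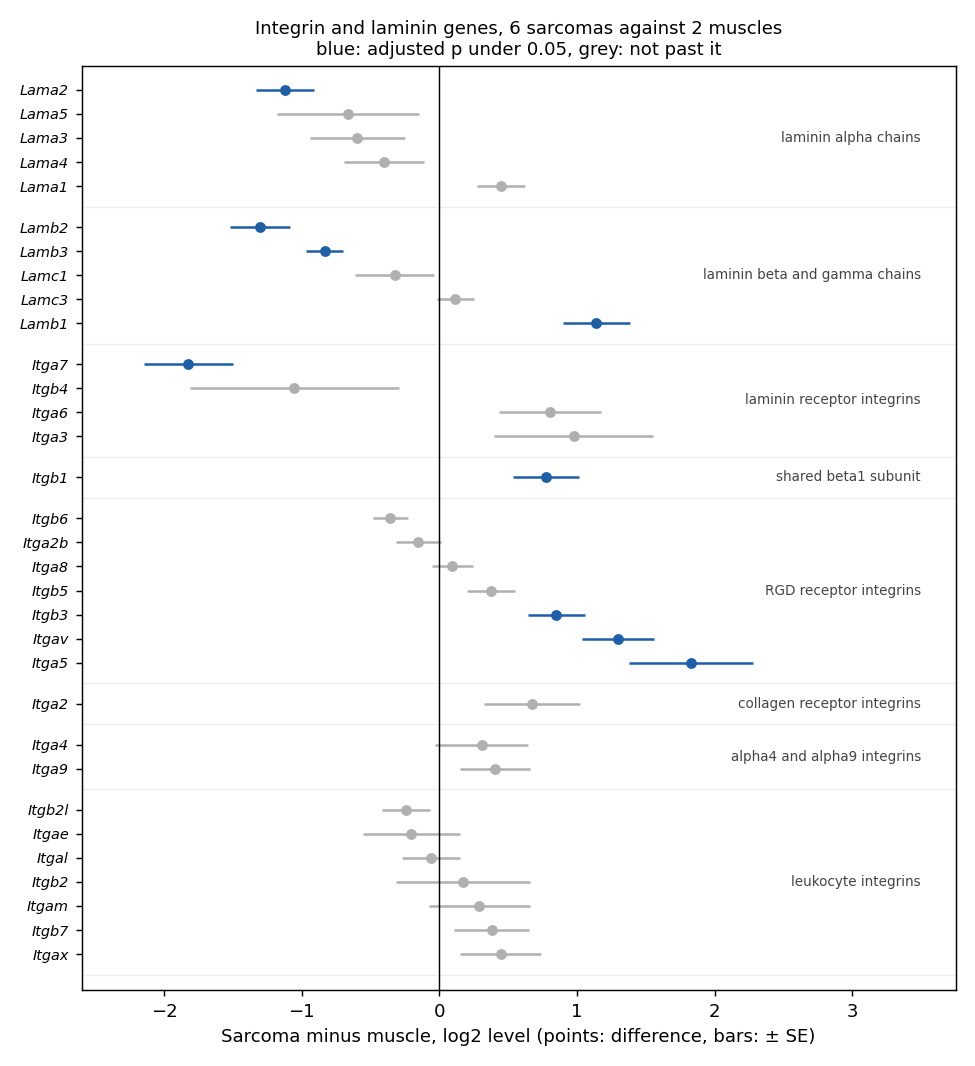
Difference between the mean log2 level of 6 sarcomas and of 2 muscles (points, with bars of ± 1 SE from limma) for the 32 integrin and laminin genes, grouped by role. Blue points are the 9 genes with an adjusted p under 0.05, from -1.82 for Itga7 to 1.83 for Itga5.

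Of the laminin chains, Lama2, Lamb2 and Lamb3 were lower in the sarcomas. Lama2, the alpha chain of the fibre basement membrane, had levels of 7.10 (Ca/Ca) and 7.43 (Ca/+) in the muscles, and a lowest, median and highest sarcoma level of 5.81, 6.07 and 6.51. All 6 sarcomas lay below both muscles. On the log2 scale Lama2 fell by 1.12 (SE 0.21, adjusted p = 0.00619), from 7.27 ± 0.23 (SD, n = 2) to 6.15 ± 0.28 (SD, n = 6). In these pieces of tissue, fewer cells that make a transcript and less of it per cell cannot be told apart. Lamb2, the beta chain concentrated at the neuromuscular synapse and in vessel walls, stood at 7.25 and 7.56 in the muscles and between 5.58 and 6.40 in sarcomas, with a median of 6.14. Lamb2 fell by 1.30 (SE 0.22, adjusted p = 0.0035), again with no overlap of the groups. Lamb3, a beta chain of epithelial laminin, fell by 0.83 (SE 0.14, adjusted p = 0.00346), from 4.07 and 4.13 in the muscles to between 3.13 and 3.54 in sarcomas. Every array of Lamb3 was dim, so this difference lies between levels that genes of unrelated organs also had. Without the Ca/+ muscle Lama2 (-0.95, adjusted p = 0.0821) and Lamb2 (-1.15, 0.0514) did not pass, while Lamb3 did (-0.80, 0.0438).

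Lamb1, the beta chain that laminin trimers carry widely in growing tissues, moved the other way. Its muscle levels were 8.82 (Ca/Ca) and 8.31 (Ca/+), against 9.18, 9.76 and 10.09 as the lowest, median and highest of the sarcomas. Ca/Ca sarcoma 3 was the lowest and Ca/+ sarcoma 1 the highest, and all 6 exceeded both muscles. Lamb1 rose by 1.14 (SE 0.24, adjusted p = 0.0102), and did not pass without the Ca/+ muscle (0.89, adjusted p = 0.129). On each array the Lamb1 level minus the Lamb2 level, whose size has no meaning across probe sets but whose change does, was 1.57 (Ca/Ca) and 0.75 (Ca/+) in the muscles. In the sarcomas the same quantity ran from 3.25 to 3.92, with a mean of 3.60 ± 0.23 (SD, n = 6) against 1.16 ± 0.58 (SD, n = 2). The means differed by 2.44 on the log2 scale between the tissues. This quantity does not change when an array is rescaled. It was chosen after the values were seen and carries no test.

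Lamc1, the gamma chain shared by most laminins, did not pass (-0.32, SE 0.28, adjusted p = 0.454). Its levels of 7.38 and 7.26 in the muscles lay inside the sarcoma range of 6.28 to 7.42, and its other probe set had a difference of the opposite sign. Lama4, the alpha chain of vessel and fat cell basement membranes, stood at 7.79 and 8.29 in the muscles and between 7.03 and 8.01 in sarcomas (-0.40, SE 0.29, adjusted p = 0.356). Endothelial markers had 10 of 15 lower in sarcoma, against 13.2% of all genes. Their list means were 7.87 and 8.21 in the muscles and 6.04 to 6.89 in sarcomas. The part of endothelial cells in the laminin values was not tested. Lama1, an embryonic alpha chain, had all 6 sarcomas (3.93 to 4.45) above the muscles (3.69 and 3.76), at dim levels, and did not pass (0.45, SE 0.17, adjusted p = 0.0923). Lama3, an epithelial alpha chain, was dim on every array (3.51 to 4.90) and its groups overlapped. Lama3 did not pass on all arrays (-0.60, adjusted p = 0.249) and passed without Ca/+ sarcoma 1 (-0.77, adjusted p = 0.04997). Lamc3 ranged from 3.40 to 3.76 and also was dim everywhere.

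RefSeq (GRCm38.p6) gave a start site sequence for 20 of the 32 genes. Entries were missing for 12, Itga7 among them. The 250 bases before the start are shown for the laminin chains Lama2 and Lamb2, which fell, and Lamb1, which rose. They are also shown for Itga5, the integrin subunit with the largest rise. Lamb3, which fell too but was dim on every array, has 2 entries and is not shown. Capitals mark each match to CANNTG, the E-box read by muscle regulators such as MyoD and by many other factors.
Lama2 (chr10:27616943-27617192, minus strand): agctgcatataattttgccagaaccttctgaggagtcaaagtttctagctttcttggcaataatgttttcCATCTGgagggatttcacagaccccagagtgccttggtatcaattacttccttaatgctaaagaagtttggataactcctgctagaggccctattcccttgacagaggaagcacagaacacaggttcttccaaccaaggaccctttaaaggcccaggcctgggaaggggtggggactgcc
Lamb2 (chr9:108479612-108479861, plus strand): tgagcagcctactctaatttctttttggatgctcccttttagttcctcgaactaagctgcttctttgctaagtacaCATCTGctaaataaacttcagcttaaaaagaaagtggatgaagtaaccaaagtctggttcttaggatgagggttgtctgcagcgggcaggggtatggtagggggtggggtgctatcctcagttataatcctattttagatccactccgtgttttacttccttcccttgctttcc
Lamb1 (chr12:31265043-31265292, plus strand): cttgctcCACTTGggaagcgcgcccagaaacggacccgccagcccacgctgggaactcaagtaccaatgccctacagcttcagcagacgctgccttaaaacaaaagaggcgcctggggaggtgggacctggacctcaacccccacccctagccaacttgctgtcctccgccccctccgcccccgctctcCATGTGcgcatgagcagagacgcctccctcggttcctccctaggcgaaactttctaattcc
Itga5 (chr15:103366792-103367041, minus strand): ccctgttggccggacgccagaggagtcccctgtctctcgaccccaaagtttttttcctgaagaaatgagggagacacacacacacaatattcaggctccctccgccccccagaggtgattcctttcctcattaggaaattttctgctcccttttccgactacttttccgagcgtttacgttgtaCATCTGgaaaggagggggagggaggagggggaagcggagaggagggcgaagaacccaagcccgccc
Lama2, Lamb2 and Itga5 had 1 match each and Lamb1 had 2, on either strand. The 2 windows of Lamb3, not shown, had 3 and 1. Such a match was present in 66.2% of all 32851 start site windows of this length, so it does not set these genes apart. TGANTCA, the AP-1 motif at which Fos and Jun proteins bind, was in none of the 4 windows shown and in 6.75% of all. GC content was 47.2% for Lama2, 43.6% for Lamb2, 62% for Lamb1 and 55.6% for Itga5.

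Among the laminin receptors the muscle subunit fell. Itga7, the alpha subunit of the muscle fibre's laminin integrin, stood at 6.85 (Ca/Ca) and 7.62 (Ca/+) in the muscles. In sarcomas its lowest, median and highest levels were 4.86, 5.45 and 6.00, with Ca/Ca sarcoma 3 the lowest and Ca/Ca sarcoma 1 the highest. Every sarcoma lay below both muscles, and 2 of them were dim. Itga7 fell by 1.82 (SE 0.33, adjusted p = 0.00486), from 7.23 ± 0.54 (SD, n = 2) to 5.41 ± 0.43 (SD, n = 6), a 3.54-fold difference of the means. Without the Ca/+ muscle it had a difference of -1.44 and did not pass (adjusted p = 0.0701). Pericyte and smooth muscle markers, cells that also carry Itga7, had 4 of 12 lower, against 13.2% of all genes. Their list means were 8.18 and 8.30 in the muscles and 6.29 to 7.34 in sarcomas. Of these 4 genes, Des (-3.39) is also in the muscle fibre list, so its fall and its part in the list means cannot be credited to pericytes. Satellite cell markers had 7 of 9 lower and 1 higher, against 13.2% and 13.1% of all genes. Of the lower ones Pax7, Pax3 and Myf5 were dim on every array, and Des is also in the muscle fibre list. The part of these cells in the Itga7 difference was not tested.

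**Figure D2:**
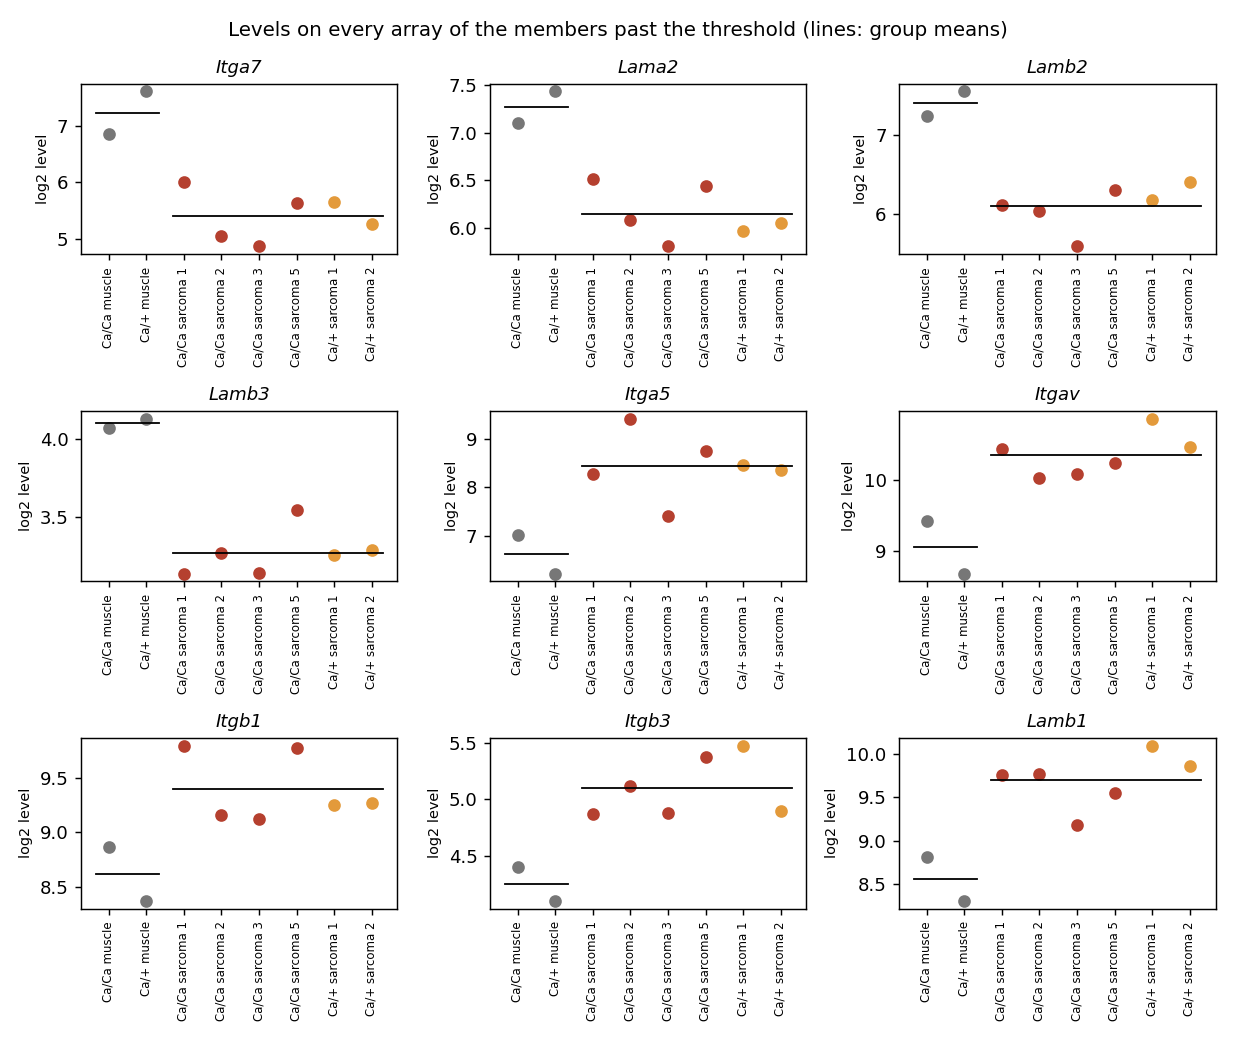
Log2 levels on each of the 8 arrays for the 9 members past the threshold, with grey points for muscles, red for Ca/Ca sarcomas, orange for Ca/+ sarcomas and lines at the group means. The vertical axes are cut to each gene's range, and in all 9 panels the 6 sarcomas lie on 1 side of both muscles.

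Itgb4, Itga3, Itga6 and Lama5 had their highest level in Ca/Ca sarcoma 5, which stood far from the other sarcomas for Itgb4 and Lama5. Itgb4 is the beta subunit that pairs with Itga6 in hemidesmosomes and on Schwann cells. It stood at 6.69 and 6.29 in the muscles, at 4.43 to 5.13 in 5 sarcomas and at 7.79 in Ca/Ca sarcoma 5. Over all arrays Itgb4 did not pass (-1.05, SE 0.76, adjusted p = 0.357). Without that sarcoma it fell by 1.53 (adjusted p = 0.00286), and the SD among sarcomas was 0.30 in place of 1.19. Lama5, the alpha chain of epithelial and mature vessel laminin, had the same shape. Its level was 6.91 and 6.85 in the muscles, 5.70 to 6.18 in 5 sarcomas and 7.82 in Ca/Ca sarcoma 5, with a difference of -0.67 (adjusted p = 0.396) on all arrays. Without that sarcoma Lama5 fell by 0.99 (adjusted p = 0.00461).

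The alpha subunits Itga3, which pairs with beta1, and Itga6, which pairs with beta1 or beta4, also read laminin. Both had their highest levels in the same tumour. Itga3 reached 8.52 there, against 5.76 to 7.07 in the other sarcomas and 6.06 and 5.87 in the muscles, and did not pass (0.97, SE 0.58, adjusted p = 0.262). Itga6 reached 10.17, against 8.71 to 9.74 in the other sarcomas and 8.67 and 8.50 in the muscles. All 6 sarcomas exceeded both muscles for Itga6, but it did not pass (0.80, SE 0.37, adjusted p = 0.154). Unlike Itgb4, these genes were not lower than muscle in the other sarcomas as a group, with differences of 0.66 and 0.65 without Ca/Ca sarcoma 5 that did not pass (adjusted p = 0.185 and 0.158).

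Epithelial markers were measured beside these genes. Of 13, 1 fell (Trp63) and 12 did not pass, while 13.2% of all genes fell. Their list mean was 5.49 in Ca/Ca sarcoma 5 and 3.80 to 4.90 in the other sarcomas, beside 5.27 in the Ca/Ca and 3.89 in the Ca/+ muscle. The keratins of simple epithelium Krt8 and Krt18, which many sarcomas also express, stood at 9.86 and 11.55 in that tumour, against 4.68 to 7.75 and 5.24 to 10.26 in the others. The desmosome gene Dsp was at 6.72, Perp at 7.11 and Cdh1 at 5.22. The Ca/Ca muscle had Krt8 at 7.91, Krt18 at 7.70, Dsp at 4.50, Perp at 4.73 and Cdh1 at 5.63. These 5 of 13 markers had their highest sarcoma level in Ca/Ca sarcoma 5, and the other 8 did not. Krt19 was at 3.85 there against 7.28 in Ca/Ca sarcoma 1, Epcam at 5.77 against 6.68 in Ca/Ca sarcoma 3, and Cldn4 at 4.43 against 4.98 in the latter. The basal keratins Krt5 (3.97) and Krt14 (3.68) and the basal regulator Trp63 (2.87) were dim there. These markers were picked from the list after their values were seen. Schwann cell markers had a list mean of 5.50 in Ca/Ca sarcoma 5, inside the range of 5.37 to 5.77 over sarcomas, and of 7.12 and 6.16 in the muscles. Of the 8 Schwann cell genes 4 fell, against 13.2% of all genes. The part of these cells in the Itgb4 and Lama5 levels was not tested.

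**Figure D3:**
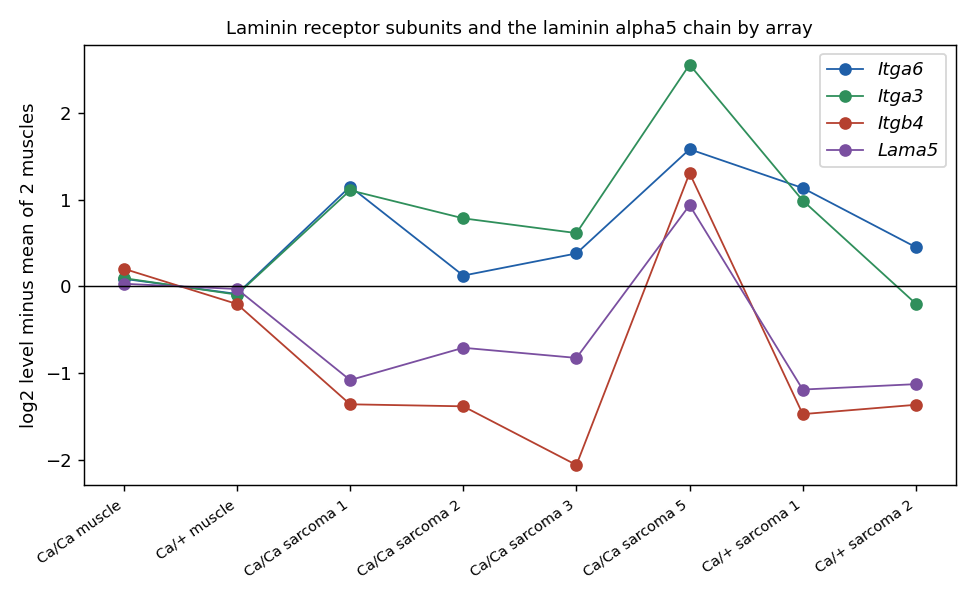
Log2 level of Itga6, Itga3, Itgb4 and Lama5 on each array minus the mean of the 2 muscles for that gene. Itgb4 and Lama5 lie below the muscle mean in 5 sarcomas and above it in Ca/Ca sarcoma 5, where all 4 genes peak.

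Of 7 subunits of RGD receptors, Itga5, Itgav and Itgb3 rose and 4 did not pass. Itga5, the alpha subunit of the fibronectin receptor, stood at 7.02 (Ca/Ca) and 6.23 (Ca/+) in the muscles, against 7.42, 8.41 and 9.42 as the lowest, median and highest of the sarcomas. It was highest in Ca/Ca sarcoma 2 and lowest in Ca/Ca sarcoma 3, and all 6 lay above both muscles. Itga5 rose by 1.83 (SE 0.45, adjusted p = 0.0189), from 6.62 ± 0.56 (SD, n = 2) to 8.45 ± 0.65 (SD, n = 6). Itgav, the alpha subunit of several RGD receptors, stood at 9.43 and 8.69 in the muscles and between 10.03 and 10.86 in sarcomas, with a median of 10.34. Itgav rose by 1.30 (SE 0.26, adjusted p = 0.00828), and its SD among sarcomas of 0.31 was below that of Itga5. Itgb3, a beta partner of Itgav, rose by 0.85 (SE 0.21, adjusted p = 0.0175), from dim levels of 4.40 and 4.10 in the muscles to between 4.87 and 5.47. Its levels in Ca/Ca sarcomas 1 (4.87) and 3 (4.87) and in Ca/+ sarcoma 2 (4.89) were dim too. That rise thus lies partly between levels that genes of unrelated organs also had, and its size is uncertain. Without the Ca/+ muscle none of the 3 passed, with differences of 1.43 for Itga5 (adjusted p = 0.191), 0.93 for Itgav (0.111) and 0.70 for Itgb3 (0.174). Read from its other probe set, which lay lower, Itga5 had a difference of 0.63 and did not pass (adjusted p = 0.0671).

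Itgb1 pairs with most alpha subunits, those of laminin, collagen and fibronectin receptors included. Its muscle levels were 8.87 (Ca/Ca) and 8.37 (Ca/+), and its lowest, median and highest sarcoma levels were 9.12, 9.26 and 9.79. The groups did not overlap, and Itgb1 rose by 0.77 (SE 0.24, adjusted p = 0.0446). This call was close to the threshold. It was kept without Ca/Ca sarcoma 3 and lost without any 1 of the other 7 arrays. Adjusted p was then 0.356 without the Ca/+ muscle, 0.058 without the Ca/Ca muscle, 0.0642, 0.0543 and 0.0532 without Ca/Ca sarcomas 1, 2 and 5, and 0.0598 and 0.0663 without Ca/+ sarcomas 1 and 2. The difference without the Ca/+ muscle was 0.53. Of the 6 probe sets of Itgb1, 5 had a higher mean in sarcoma, and the exception had means of 2.27 in sarcoma and 2.29 in muscle. The Itgav level minus the Itga7 level, computed on each array as above, was 2.57 and 1.07 in the muscles and 4.44 to 5.22 in sarcomas. The Itga5 level minus the Itga7 level was 0.17 and -1.39 in the muscles and 2.28 to 4.38 in sarcomas. Neither quantity overlapped between the tissues, and neither was tested.

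The other RGD subunits did not pass. Itgb5, a beta partner of Itgav in vitronectin binding, had a mean of 8.77 ± 0.32 (SD, n = 2) in the muscles, and levels between 8.89 and 9.31 in sarcomas, which overlapped those of the muscles (0.38, SE 0.17, adjusted p = 0.150). Its spread among sarcomas was narrow, with an SD of 0.17. Itgb6, an epithelial partner of Itgav, was dim on every array and lay lower in all 6 sarcomas (2.73 to 3.04) than in the muscles (3.35 and 3.24), with adjusted p = 0.07. Itga8 was dim as well, at 2.66 to 3.12. Itga2b, the platelet fibrinogen receptor subunit, ranged from 5.89 to 6.47 with overlapping groups (-0.15, adjusted p = 0.542), beside platelet markers of which 0 of 5 passed in limma.

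Of the collagen receptors Itga2 was measured. It stood at 4.58 and 4.56 in the muscles and at 4.82 to 5.35 in 5 sarcomas, with 6.25 in Ca/+ sarcoma 1. All sarcomas lay above both muscles, but Itga2 did not pass (0.67, SE 0.35, adjusted p = 0.198). Itga9, a receptor for tenascin and other ligands, ranged from 5.98 in Ca/Ca sarcoma 5 to 6.95, against 6.38 and 6.11 in the muscles (0.41, adjusted p = 0.289). Without Ca/Ca sarcoma 5 it passed, at 0.54 (adjusted p = 0.0411). Itga4, a receptor for Vcam1 on blood cells and others, was dim on every array (3.41 to 4.63). Its ligand Vcam1, named by the rule for the surrounding lists, rose by 2.16 (SE 0.36, adjusted p = 0.00345).

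None of the 7 leukocyte integrins passed in limma against muscle, and for all 7 the Ca/Ca muscle lay above the Ca/+ muscle, though for Itgb7 both were 6.70 to 2 decimals. The share of all genes with that direction between the muscles is not given here. Itgb2, the beta subunit common to the main leukocyte integrins, stood at 9.18 (Ca/Ca) and 8.08 (Ca/+) in the muscles. The lowest, median and highest sarcoma levels were 7.94 in Ca/Ca sarcoma 5, 8.92, and 9.48 in Ca/Ca sarcoma 2, so the groups overlapped (0.17, SE 0.49, adjusted p = 0.835). Itgax, a subunit of dendritic cells and macrophages, stood at 6.37 (Ca/Ca) and 5.24 (Ca/+) in the muscles and between 5.80 and 6.60 in sarcomas (0.44, SE 0.29, adjusted p = 0.317). Without the Ca/Ca muscle Itgax passed, at 1.01 (adjusted p = 0.0398). Itgam, of macrophages and neutrophils, was lowest in the Ca/+ muscle at 5.02 and highest in Ca/Ca sarcoma 1 at 6.44 (0.29, adjusted p = 0.612).

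Subunits associated with lymphocytes had overlapping groups. Itgal, which pairs with Itgb2 on lymphocytes, ranged from 4.63 in Ca/Ca sarcoma 5 to 5.41 in Ca/Ca sarcoma 2 (-0.059, adjusted p = 0.872). Itgae, which pairs with Itgb7 on T cells in epithelium, was lowest at 3.70 in Ca/Ca sarcoma 5, against 4.38 to 5.15 on the other arrays (-0.20, adjusted p = 0.72). Itgb7 lay at 6.70 in both muscles and between 6.52 and 7.56 in sarcomas (0.38, adjusted p = 0.357). Itgb2l, a relative of Itgb2, was dim throughout, from 4.11 to 4.70. Beside these, 2 of 16 macrophage markers (Cd68 and Ms4a7) rose, against 13.1% of all genes. Of the lymphocyte markers 0 of 14 passed in limma, against 26.3% of all genes. The lymphocyte list had a mean of 4.26 in Ca/Ca sarcoma 5 and 5.17 in Ca/+ sarcoma 1, against 6.38 to 6.93 in the other sarcomas and 6.21 and 6.75 in the muscles. The macrophage list mean was also lowest among sarcomas in Ca/Ca sarcoma 5 (9.20) and next lowest in Ca/+ sarcoma 1 (9.99). Itgb2 followed the same order at its low end, with 7.94 and 8.14 in those tumours and 8.61 to 9.48 in the others. Itgal, Itgam and Itgae had this order too, while Itgax and Itgb2l did not. Itgb7 went the other way, with 7.34 in Ca/Ca sarcoma 5 and 7.56 in Ca/+ sarcoma 1, against 6.52 to 7.21 in the others. Neutrophil and mast cell markers had a list mean of 4.77 in Ca/Ca sarcoma 5 and 5.53 to 6.81 in the other sarcomas. The part of leukocyte numbers in these integrin levels was not tested.

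**Figure D4:**
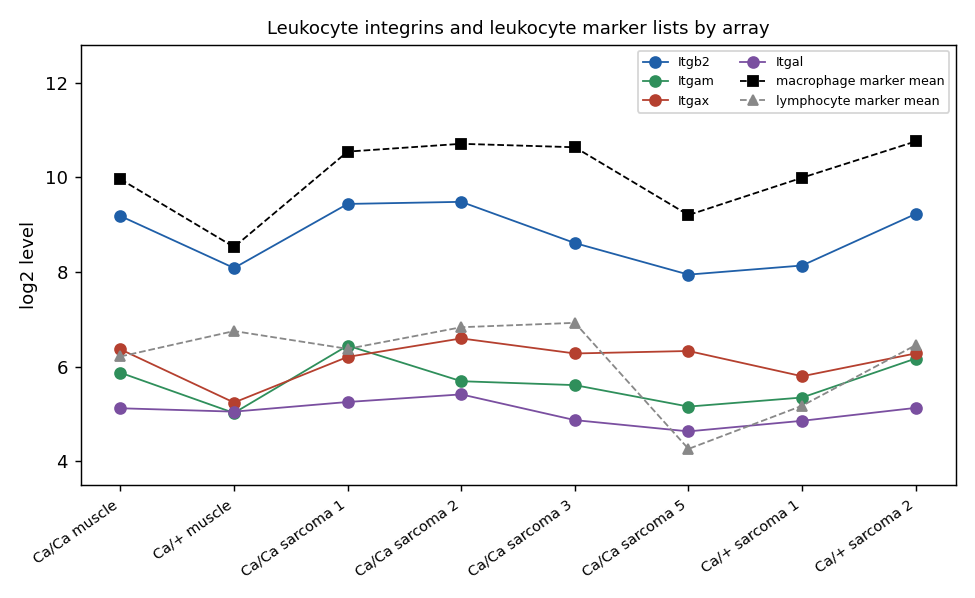
Log2 levels of Itgb2, Itgam, Itgax and Itgal on each array (solid lines) with the mean log2 level of 16 macrophage markers and of 14 lymphocyte markers (dashed lines). Itgb2 is lowest at 7.94 in Ca/Ca sarcoma 5, where both marker means have their lowest sarcoma values.

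The 2 muscles were not alike for these genes. Over the 32 members 23 had a higher level in the Ca/Ca muscle, and the median size of the gap between muscles was 0.31, against 0.22 over all genes. The share of all genes with a higher level in the Ca/Ca muscle is not given here. The counts by direction in this paragraph therefore cannot set the members apart from other genes. The largest gaps in favour of the Ca/Ca muscle were those of Itgax (1.12) and Itgb2 (1.10). The largest in favour of the Ca/+ muscle were those of Itga7 (0.76) and Lama4 (0.496). For all 9 members past the threshold the Ca/Ca muscle lay on the sarcoma side of the Ca/+ muscle, higher for the 5 that rose and lower for the 4 that fell. Against the Ca/Ca muscle alone only Lamb3 of the 9 passed, beside 3% of all genes higher and 6.64% lower. Against the Ca/+ muscle alone 8 did, all but Itgb1, beside 8.39% and 10.4%. Calls were thus fewer over all genes too, and each lone muscle was taken to spread as the sarcomas do. None of the differences of these 9 members changed its sign between these fits. With Ca/Ca arrays only, 4 sarcomas against 1 muscle, 0 of 9 passed in limma (0.734% of all genes higher and 4.12% lower), and with Ca/+ arrays only 5 of 9 did (4.78% and 5.61%). Since each genotype has 1 muscle, a difference between the muscles by genotype and one by sample cannot be told apart.

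**Figure D5:**
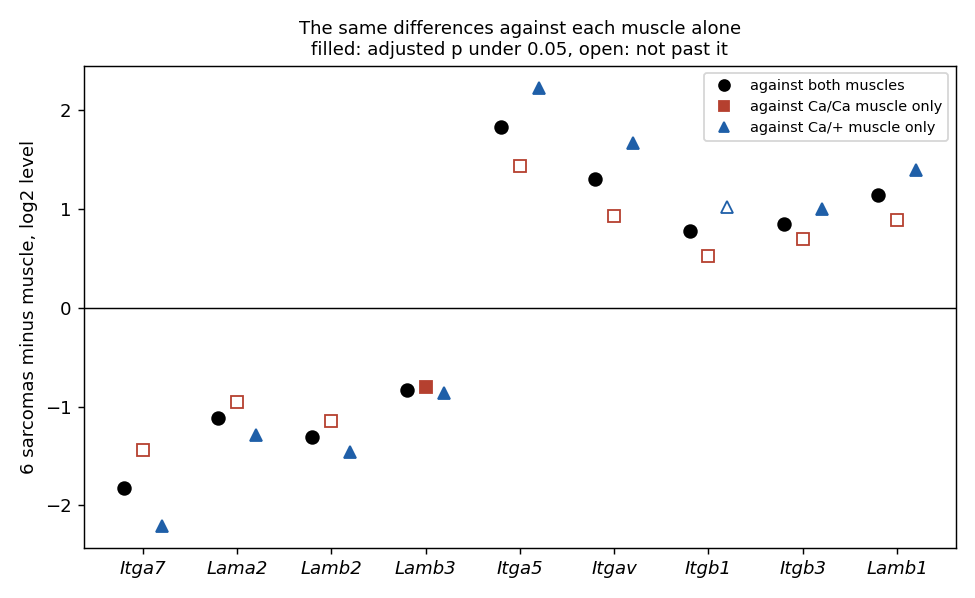
Difference of the 6 sarcomas from both muscles (circles), from the Ca/Ca muscle alone (squares) and from the Ca/+ muscle alone (triangles), on the log2 scale, for the 9 members past the threshold. Filled symbols have an adjusted p under 0.05, and the difference from the Ca/+ muscle is the larger for all 9 genes.

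Braf dose was compared within the sarcomas. None of the 32 members passed between Ca/Ca and Ca/+ sarcomas in limma, as was so for 0 of 12393 genes (0%), with 4 members and 971 genes (7.84%) at an unadjusted p under 0.05. Of the members with the smallest p in each direction, Lama3 (-0.85, SE 0.24, adjusted p = 0.6) and Itga2 (-0.84, SE 0.26, adjusted p = 0.62) were lower in Ca/Ca, and Itgb2l (0.36, SE 0.14, adjusted p = 0.63) and Lama1 (0.34, SE 0.15, adjusted p = 0.65) were higher. Of these Lama3, Itgb2l and Lama1 were dim on every array. Itgav was 0.47 lower in Ca/Ca (10.20 ± 0.18, SD, n = 4, against 10.66 ± 0.28, SD, n = 2), also without a call (adjusted p = 0.63). The 4 Ca/Ca sarcomas and the 2 Ca/+ sarcomas did not overlap for 9 of 32 members, against 21% of all genes.

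For the interaction of tissue and genotype, which asks whether the sarcoma difference depends on the Braf genotype, 0 members and 1 of 12393 genes (0.00807%) passed in limma, with 1 member and 895 genes (7.22%) at an unadjusted p under 0.05. Itgav had the smallest p of the members, at -1.21 (SE 0.36, adjusted p = 0.531), followed on the negative side by Lamb1 (-0.92, SE 0.40, adjusted p = 0.71). Itga2b (0.59, SE 0.28, adjusted p = 0.76) and Lama1 (0.41, SE 0.30, adjusted p = 0.876) led on the positive side.

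The genes around the receptors and the sheet were described by lists. Of 25 integrin adaptors and kinases, 6 rose, 4 fell and 15 did not pass, with a median difference of 0.51. Over all genes 13.1% rose and 13.2% fell, with a median difference of 0.026. The largest falls were those of Itgb1bp2 (by 3.91, SE 0.25, adjusted p = 3.59e-05), the muscle chaperone melusin that binds the beta1 tail, and Lims2 (by 2.44, SE 0.30), an adaptor of the integrin-linked kinase complex. Itgb1bp2 stood at 8.41 and 8.74 in the muscles and between 4.06 and 5.05, thus dim, in every sarcoma. The largest rises were those of the kinase gene Src (1.87, SE 0.33, adjusted p = 0.00444) and of Fblim1 (1.80, SE 0.27, adjusted p = 0.0023), a filamin-binding adaptor. Lims1, the relative of Lims2, rose by 0.67 (adjusted p = 0.0401), so this pair of adaptors changed in opposite directions, as the laminin beta chains did.

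Of 8 non-integrin laminin receptors 4 rose, 2 fell and 2 did not pass, with a median of 0.75. Beside them stand the shares over all genes, 13.1% higher and 13.2% lower. Dag1, which encodes dystroglycan, the fibre's other laminin receptor, fell by 1.53 (SE 0.23, adjusted p = 0.00214), from 10.45 to 8.92. Bcam, a receptor for laminin alpha5, fell by 1.43 (SE 0.20, adjusted p = 0.00153). The syndecan gene Sdc1 rose by 1.96 (SE 0.55, adjusted p = 0.0313) and the galectin gene Lgals3 by 1.58 (SE 0.36, adjusted p = 0.0131). The muscles were unlike for both. Sdc1 stood at 8.28 (Ca/Ca) and 5.97 (Ca/+) in the muscles and at 8.55 to 9.68 in sarcomas. Lgals3 stood at 10.35 and 8.94 in the muscles and at 10.86 to 11.60 in sarcomas. The partners that bind laminin in the sheet had 0 of 15 higher, 2 lower and a median of -0.044. The same values over all genes were 13.1%, 13.2% and 0.026. Smoc2 fell by 2.38 (adjusted p = 0.00917) and Col4a6, at dim levels, by 0.64 (0.0193). The nidogen gene Nid1 (0.20, adjusted p = 0.762), the perlecan gene Hspg2 (0.12, 0.754) and the type IV collagen gene Col4a1 (0.12, 0.863) did not pass. Of 23 other integrin ligands 2 rose and 2 fell, with a median of 0.039, beside the same shares over all genes. Vcam1 and Ccn2 (1.75, adjusted p = 0.00841), a matricellular protein, rose, and vitronectin (Vtn, by 3.36) and von Willebrand factor (Vwf, by 2.87) fell, at adjusted p of 0.000507 and 0.00116. Fn1, the ligand of the receptor that rose, had a difference of 1.49 that did not pass (adjusted p = 0.141), with 11.87 (Ca/Ca) and 9.37 (Ca/+) in the muscles and 11.12 to 13.10 in sarcomas. The lists were chosen with earlier results of these data known.

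Members differed in how much they varied among tumours. The median SD over the 6 sarcomas was 0.34 for the members and 0.24 for all genes. Itgb4 (1.19), Itga3 (0.90), Lama5 (0.81), Itgb2 (0.67), Itga5 (0.65) and Itga6 (0.57) varied most, and without Ca/Ca sarcoma 5 these SDs were 0.30, 0.52, 0.21, 0.58, 0.71 and 0.47. Ca/Ca sarcoma 1 was the highest of the 6 for 8 members and Ca/Ca sarcoma 5 for 7. Ca/Ca sarcoma 3 was the lowest for 9 and Ca/Ca sarcoma 5 for 7. Of the 14 members with more than 1 probe set, 12 had the same sign of difference in every set. The exceptions were Itgb1 and Lamc1.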

How the data were processed

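The series holds 8 one-colour arrays of mouse total RNA. The deposited values are log2 levels per probe set, made by the authors with RMA, per the submitters' processing notes. RMA corrects background, gives arrays a common distribution and summarises probes, so a change in total RNA is not measured. No source used here gives its version, a batch or a scan date. Array medians ran from 5.79 to 5.90, no pair of arrays shared more than 32 equal values over 12393 genes, and the number of arrays limits the precision. Of 22690 probe sets, 64 were controls and 20380 had 1 gene symbol. Per gene the set with the highest mean was used, and 0 columns belonged to other samples.

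Groups came from the titles. Tests used limma 3.58.1 (lmFit and eBayes) in R 4.3.3 with Benjamini-Hochberg adjustment over all genes at a threshold of 0.05, and were tested on simulated data. All 8 arrays entered the tissue comparison and the 6 sarcomas the genotype comparison. The interaction used 4 groups and took the spread of a lone muscle to be that of the tumours. SE is that of the moderated fit. No filter on dim genes was applied. The alternatives were other scalings, probe set choices, filters, variance models, sample subsets and a replicate block. The lists held 337 symbols, of which 294 were measured. The members and lists were chosen with earlier results of these data known. Named were all members, giving levels for those past the threshold and for each role, and from each surrounding list the 2 largest rises and falls past the threshold. Members of lists outside this rule (Lims1, Nid1, Hspg2, Col4a1, Fn1 and the epithelial genes) were chosen after their values were seen. Figures used Python 3.11.15 and matplotlib 3.10.9.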

Additional observations from a re-analysis of the deposited data

Results flagged for a closer look

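Among the 6 sarcomas and, separately, the 4 Ca/Ca sarcomas, the gap between the outermost array and its neighbour was set against the range for each member, 64 groups in all. It passed Dixon's critical value in 5 of them, and chance gives about 1 in 20. Ca/Ca sarcoma 5 was the array in 4 of the 5. Among the 6 sarcomas it was highest for Itgb4 at 7.79 (next 5.13), for Lama5 at 7.82 (next 6.18) and, at a dim level, for Lamb3 at 3.54 (next 3.28). Among the Ca/Ca sarcomas it was lowest for Itga9 at 5.98 (next 6.83). Ca/+ sarcoma 1 was highest of the 6 for Itga2 at 6.25 (next 5.35). No member passed the test of a difference between genotypes in the sarcoma effect.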

How the results depend on the processing

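The count of members higher in sarcoma was 5, and became 3 under housekeeping gene centring, 1 under ribosomal protein gene centring, 0 with Ca/Ca arrays only and 3 with Ca/+ arrays only, and 0 to 5 without 1 array. The count of lower members was 4, and became 2 without the dimmest 50% of genes (Itga7 and Lamb3 fall out of the test), 0 with Ca/Ca arrays only and 2 with Ca/+ arrays only, and 1 to 6 without 1 array. The test without the dimmest 50% of genes held only 14 members, so its lower count is 2 of 14. Beside it 14.3% of the 6197 genes tested were lower, against 13.2% of all genes in the main test. That count therefore does not show a smaller share of lower members. Some of the counts above include members not called on all arrays, such as Itgb4 and Lama5 without Ca/Ca sarcoma 5. Housekeeping and ribosomal protein gene centring shift the median of all genes by -0.21 and -0.34, and the split of all calls from 1626 higher and 1630 lower to 1017 and 2429 and to 579 and 3313, and cyclic loess gives 1057 and 1918. With Ca/Ca arrays only Itga7 (-1.47, adjusted p = 0.166) and Lama2 (-0.89, 0.204) did not pass. Without 1 array Itga7 ranged from -2.21 to -1.44 and Lama2 from -1.29 to -0.95. The 9 called genes kept their sign in all alternatives run. Itgb1 lost its call also under cyclic loess (0.52), both gene centrings (0.56 and 0.44), the mean of probe sets (0.43) and genotype as a covariate (0.73), and under ribosomal protein gene centring so did Itgav (0.96), Itgb3 (0.51) and Lamb1 (0.80), with Itgb3 lost under housekeeping gene centring too (0.64). Itgb6 passed in 6 alternatives, and Lama1 (0.50, adjusted p = 0.0445) under cyclic loess, Itgb5 (0.57, 0.0348) with plain-named probe sets and Itgb2l (-0.58, 0.0496) under ribosomal protein gene centring did too. The cause of these changes was not tested, beyond fewer genes or arrays where the setting itself leaves them out.

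Differences that had no call changed sign as follows. Under ribosomal protein gene centring Itga4 was -0.032, Itga8 -0.24, Itgam -0.047, Itgb2 -0.16 and Lamc3 -0.22. Under housekeeping gene centring Itga8 was -0.12, Itgb2 -0.039 and Lamc3 -0.096. Itgb2 was -0.074 under cyclic loess and Itgal 0.058 with array weights. With Ca/Ca arrays only Itga2b was 0.10, Itga4 -0.21, Itgam -0.15, Itgax -0.013 and Itgb2 -0.31. Without 1 array Itga2b ranged from -0.33 to 0.026, Itga4 from -0.051 to 0.66, Itgal from -0.14 to 0.019, Itgam from -0.13 to 0.72, Itgax from -0.12 to 1.01 and Itgb2 from -0.38 to 0.72.

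With the tumour number as a replicate block, 0 genes passed between Ca/Ca and Ca/+ sarcomas, as without it, and 1 member in place of 4 had an unadjusted p under 0.05. Only numbers 1 and 2 are shared, and the deviations of same-numbered tumours had correlations of -0.19 and 0.29. The deviations of the 2 Ca/+ sarcomas mirror each other, so these correlations cannot decide whether the numbers pair the tumours. No member passed for genotype or interaction in any alternative run.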
